A study of Mus musculus with 16 samples.

Results

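The loci of 10 Notch effector genes were examined in chromatin of mouse small cell lung cancer (SCLC): the transcriptional repressors Hes1, Hes5, Hes6, Hey1, Hey2 and Heyl, the feedback inhibitor Nrarp, and the corepressors Tle1, Tle2 and Tle4. A peak was counted for a gene when, of all protein-coding transcription start sites in the GENCODE basic annotation of mm10, the nearest to the peak's centre was that gene's. By this rule 141 of the 80367 peaks in the authors' 2 lists of differential peaks belonged to the 10 genes, and each of the 10 had at least 1. Of these 141 peaks, 68 were more accessible in GFPhigh than in GFPneg cells (called opened here) and 73 were less accessible (called closed), so that 48.2% were opened, with a 95% Wilson interval of 40.1% to 56.4%. Over all listed peaks the opened share was 50.8%, which the interval contained. Without Hes1, the gene whose reporter set the sort gate, 42 of 104 peaks were opened (40.4%, 31.5% to 49.99%), and that interval lay below 50.8%. With Hes1 kept and Tle4 left out, 51.0% were opened. The direction turned under another rule, since with the nearest start site of any gene type 22 of the 37 peaks outside Hes1 were opened (59.5%, 43.5% to 73.7%). By the first rule, 37.5% of the 104 peaks outside Hes1 lay over 100 kb away, against 21.1% of all listed peaks. Of all listed peaks at that distance 32.5% were opened, and the 50.8% was not matched for distance. The 10 loci were not alike. Every listed peak of Hes5, Hes6 and Nrarp was opened, most of those of Hes1 were opened, every one of Heyl and all but 1 of Hey1 were closed, and the Tle loci held both kinds.

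The study profiled open chromatin with bulk ATAC-seq, in which a transposase cuts and tags accessible DNA, in cells sorted from lung tumors of TKO;Hes1GFP/+ mice. In these mice, floxed Rb, p53 and p130 (Rb1, Trp53 and Rbl2) were deleted by intratracheal adenovirus carrying Cre under the CMV promoter, given to young adults of both sexes, and tumors were collected and pooled within each mouse some months later. GFPhigh cells, which the study treats as non-neuroendocrine (non-NE), were compared with GFPneg, neuroendocrine (NE) cells of the same mice, and both populations carried all of these alleles, including GFP placed at 1 copy of Hes1. The sort took CD24-positive cells free of CD45, CD31 and TER-119, and 4 libraries per population from 3 mice (1 mouse gave 2 pairs) were each sequenced in 2 lanes, giving 16 runs. The gate was thus set on the activity of the Hes1 locus itself, and the values at Hes1 are not independent of it. The values used here are list membership, position, DNA sequence and the authors' mean normalized read count of a peak, a single number over both populations. Whether the 2 lanes of a library were merged before counting is not given in the sources used here, so this mean is over libraries or over lane runs. No value per library was used, so no test between populations was made here and sequencing depth per library could not be judged. The mean count says how much signal a peak held in all and not how much it changed. A peak's count also grows with its width, so the count per 100 bp is given beside it for some of the peaks, and a rank by mean count favors wide peaks. Where it is not given, the counts do not allow for width. The Wilson intervals cover counting error only, and peaks at one locus are not independent of each other. As the samples are bulk, a shift in which cells were present and a shift in chromatin within cells cannot be told apart.

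In Notch signaling, a receptor bound by a ligand on a neighboring cell is cleaved, and its intracellular part moves to the nucleus, where it joins the DNA-binding protein RBPJ and a Mastermind coactivator to switch on target genes. Hes and Hey genes are the best known of these targets. They code for basic helix-loop-helix proteins that repress transcription, the Hes proteins in part through the Groucho family of corepressors, which the Tle genes encode. In the lung epithelium HES1 marks cells with active Notch signaling and opposes the NE fate. HES6 differs from its relatives in that it can oppose HES1, and NRARP is a small ankyrin repeat protein, itself a Notch target, that limits Notch signaling by binding the intracellular domain and RBPJ.

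RBPJ binds the string TGGGAA, and GTGGGAA is a fuller form of its site. The stretches below are examples from opened and closed members' peaks, chosen with the matches known, with TGGGAA, or TTCCCA where it lay on the other strand, in capitals. All are on the plus strand of the reference (GRCm38, the assembly behind mm10). The first 3 are from opened peaks upstream of Nrarp, at chr2:25177774-25177880, chr2:25172776-25172841 and chr2:25168089-25168229, shown because all the peaks of this gene were opened and nearly all held the string.
Nrarp, 2.92 kb upstream: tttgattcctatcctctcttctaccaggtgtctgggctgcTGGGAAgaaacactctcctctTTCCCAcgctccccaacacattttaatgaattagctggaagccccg
Nrarp, 7.95 kb upstream: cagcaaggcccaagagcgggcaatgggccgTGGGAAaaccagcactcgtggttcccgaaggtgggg
Nrarp, 12.4 kb upstream: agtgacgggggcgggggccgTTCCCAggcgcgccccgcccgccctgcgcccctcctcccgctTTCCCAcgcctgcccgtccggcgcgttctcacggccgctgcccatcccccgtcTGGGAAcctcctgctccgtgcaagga
In the first of these the 2 cores faced each other with 15 bp between them. In the third, 3 cores lay within 101 bp. Of the 2 promoter peaks of Nrarp, the one 921 bp downstream held a GTGGGAA, whereas the one centred 109 bp downstream held no TGGGAA. The part of the latter upstream of the start site, chr2:25180482-25180757, is shown with the single E-box CACGTG in capitals.
Nrarp, promoter: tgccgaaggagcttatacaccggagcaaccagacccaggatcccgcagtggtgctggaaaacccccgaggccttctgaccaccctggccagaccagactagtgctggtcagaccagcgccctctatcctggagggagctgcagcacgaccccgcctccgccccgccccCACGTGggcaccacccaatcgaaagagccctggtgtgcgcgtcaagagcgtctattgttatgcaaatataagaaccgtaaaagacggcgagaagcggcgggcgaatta
From the other genes with mostly opened peaks come a stretch 14.4 kb upstream of Hes5 (chr4:154946486-154946551), a stretch 154 kb upstream of Hes1 (chr16:29911285-29911444) with 2 extended cores, another 87.5 kb upstream of Hes1 (chr16:29977700-29977846) with 2 of the 3 cores of its peak, and the 2 cores of the Hes6 promoter peak (chr1:91412972-91412999 and chr1:91413064-91413091).
Hes5, 14.4 kb upstream: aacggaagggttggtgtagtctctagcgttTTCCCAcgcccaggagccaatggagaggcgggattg
Hes1, 154 kb upstream: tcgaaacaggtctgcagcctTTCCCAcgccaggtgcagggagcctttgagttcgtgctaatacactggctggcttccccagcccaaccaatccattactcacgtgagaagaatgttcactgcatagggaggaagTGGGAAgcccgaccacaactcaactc
Hes1, 87.5 kb upstream: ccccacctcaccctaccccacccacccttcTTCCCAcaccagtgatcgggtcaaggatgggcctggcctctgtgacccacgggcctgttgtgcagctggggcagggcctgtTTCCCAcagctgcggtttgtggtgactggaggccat
Hes6, first core: ttccgggcctgTGGGAAgcggctactga
Hes6, second core: tccccccgtgcTTCCCAgcggtcctcat
The string was present in closed and in distant peaks as well. A closed peak 35.5 kb downstream of Hey1 (chr3:8631567-8631871) held 3 cores, 2 of them extended, as many as any members' peak, and its stretch chr3:8631567-8631848 is shown. Others were in a stretch of a Heyl intron (chr4:123239602-123239687, a closed peak) and another from far upstream of Tle4 (chr19:14993467-14993575, an opened peak).
Hey1, 35.5 kb downstream: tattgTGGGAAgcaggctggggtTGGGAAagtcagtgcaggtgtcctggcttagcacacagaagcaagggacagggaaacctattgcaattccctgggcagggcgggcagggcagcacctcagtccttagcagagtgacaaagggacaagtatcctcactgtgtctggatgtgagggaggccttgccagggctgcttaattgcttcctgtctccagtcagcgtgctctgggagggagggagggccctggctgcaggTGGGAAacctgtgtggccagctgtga
Heyl, 6.23 kb downstream: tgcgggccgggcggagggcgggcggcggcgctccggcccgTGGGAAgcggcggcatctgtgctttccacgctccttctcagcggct
Tle4, 395 kb upstream: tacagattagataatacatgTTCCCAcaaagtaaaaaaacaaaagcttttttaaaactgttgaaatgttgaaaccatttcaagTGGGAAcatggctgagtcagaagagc

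**Figure D1:**
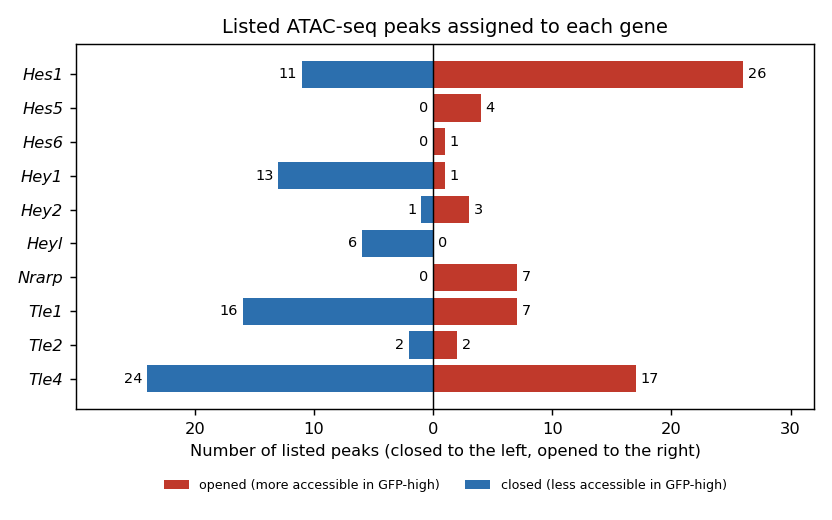
Number of listed peaks assigned to each of the 10 genes, with opened peaks as red bars to the right of 0 and closed peaks as blue bars to the left. Hes1 had 26 opened and 11 closed peaks, Hey1 had 1 and 13, and Tle4, with 17 and 24, had the most peaks of the 10.

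Hes1, a main Notch target in the lung epithelium and the gene that drives the reporter, had 37 listed peaks on chromosome 16, of which 26 were opened and 11 closed (70.3% opened, Wilson interval 54.2% to 82.5%). Of all 21822 protein-coding genes with a start site, 0.156% had as many opened peaks or more, a rank that long loci reach more easily. The stretch of chromosome nearer to the Hes1 start site than to any other was 344 kb long, against a median of 47.4 kb over all genes, and per 100 kb Hes1 held 10.8 listed peaks against 2.95 over all chromosomes, a density that 12.5% of genes equalled or exceeded. All 6 peaks within 10 kb of the start site were opened, and the 11 closed peaks lay between 22.3 kb and 200 kb upstream or between 28.6 kb and 85.9 kb downstream. Ordered along the chromosome, the 7 peaks from 17.7 kb upstream to 5.08 kb downstream formed an unbroken run of opened peaks, and so did the 7 from 119.8 kb to 55.6 kb upstream. No other run at this locus was as long.

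The promoter peak of Hes1 (chr16:30065122-30065414) was opened, was centred 72 bp upstream of the start site and had a mean count of 236, or 80.6 per 100 bp. The peak with the most signal of all 141 lay 1.39 kb upstream (chr16:30063434-30064471), was 1038 bp wide and had a mean count of 886, or 85.4 per 100 bp. Only 0.314% of all opened peaks reached that count. It lies just outside the 1 kb that defined a promoter here, but the gene record of Hes1 begins 956 bp upstream of the start site used, so that 88 bp of this peak fall inside the record. A further opened peak 5.08 kb downstream (chr16:30070057-30070782) had a mean count of 697, or 96.0 per 100 bp. The median over all opened peaks was 14.4 per 100 bp, so each of these 3 peaks was several times denser in reads than the typical opened peak.

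Of the other opened peaks, those with the largest mean counts lay 56.5 kb upstream (653, or 71.5 per 100 bp) and 119 kb upstream (484, or 63.9). Next were those 4.77 kb upstream (321, or 92.0 per 100 bp) and 150 kb upstream (284, or 63.2). Per 100 bp the peak 4.77 kb upstream was the densest of these. The peaks 56.5 kb and 119 kb upstream each lay within 1 kb of the start site of a non-coding gene, 4632428C04Rik and Gm26569, and in all 20 of the 26 opened peaks were nearer to the start site of some other annotated gene than to that of Hes1. These peaks can be assigned to Hes1 only because non-coding genes were left out of the rule. The closed peaks were weaker, per 100 bp as well. The largest, 189 kb upstream, had a mean count of 102, or 23.9 per 100 bp, and was also the densest, and 15 of the 26 opened peaks were denser. The median was 28.8 per 100 bp for the opened and 16.8 for the closed Hes1 peaks, where the medians over all listed peaks were 14.4 for opened and 10.8 for closed.

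Nrarp had 7 listed peaks on chromosome 2, all opened (Wilson interval for the share 64.6% to 100%), and they spanned from 31.0 kb upstream to 921 bp downstream of its start site. The promoter peak (chr2:25180482-25181252) was centred 109 bp downstream of the start site, was 771 bp wide and had a mean count of 439, or 57.0 per 100 bp. The peak centred 921 bp downstream was the outermost still counted as a promoter peak and had a mean count of 41.1. Upstream, the mean counts were 138 at 2.92 kb, 161 at 7.95 kb, 265 at 12.4 kb, 43.9 at 17.5 kb and 75.6 at 31.0 kb. All 7 were above the median of all listed peaks in mean count (31.5) and per 100 bp (12.2). Of the 6647 protein-coding genes with 4 or more listed peaks, 16.6% had opened peaks alone. Genes with fewer peaks reach this more easily, and the share among genes with 7 or more was not computed.

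Hes5, a Notch target best known from neural progenitors, had 4 listed peaks on chromosome 4, all opened and all between 12.2 kb and 14.4 kb upstream. The outermost had a mean count of 150 and the other 3 had 16.4, 28.7 and 26.0. No listed peak lay at its promoter. Hes6 had 1 listed peak, which was opened and covered its promoter on chromosome 1 (chr1:91412773-91413700). It was centred 14 bp upstream of the start site, was 928 bp wide and had a mean count of 555, or 59.8 per 100 bp, a count that 1.87% of all opened peaks reached.

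The Hey genes went largely the other way. Of their 24 listed peaks, 20 were closed, and no listed peak lay within 1 kb of any of their 3 start sites. Hey1 had 13 closed peaks and 1 opened peak on chromosome 3, and the 13 closed peaks formed an unbroken run from 73.2 kb downstream to 95.1 kb upstream. All 14 lay nearer to the start site of another annotated gene, none of them protein-coding, than to that of Hey1, and none lay within 10 kb of the gene body, so with either of those rules Hey1 had 0 listed peaks. The closed peak with the largest mean count lay 28.7 kb upstream (chr3:8695725-8696197), with 235, or 49.8 per 100 bp, a density that 1.34% of all closed peaks reached, and the others had mean counts between 9.98 and 67.0. The opened peak was the most distant, 106 kb upstream, and had a mean count of 18.2. Heyl had 6 closed peaks and none opened on chromosome 4. Those with the largest mean counts lay 7.51 kb upstream (chr4:123225770-123226328, mean count 294, or 52.6 per 100 bp), 6.23 kb downstream (259, or 34.7 per 100 bp) and 4.46 kb downstream (184, or 57.9 per 100 bp), the latter pair inside Heyl introns. Only 0.916%, 1.32% and 2.87% of all closed peaks had mean counts as large as these. The peak 4.46 kb downstream was the densest, and 0.736% of all closed peaks were as dense. The remaining 3 Heyl peaks had mean counts of 49.2, 16.5 and 7.31. Of genes with 4 or more listed peaks, 13.5% had closed peaks alone.

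Hey2 stood apart from both, with 3 opened peaks and 1 closed peak on chromosome 10. The nearest opened peak lay 3.70 kb downstream, in a Hey2 intron, with a mean count of 38.0, or 25.9 per 100 bp, and the others lay 220 kb and 232 kb upstream, with 55.5 and 6.03. The closed peak 54.9 kb upstream had a mean count of 35.3.

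**Figure D2:**
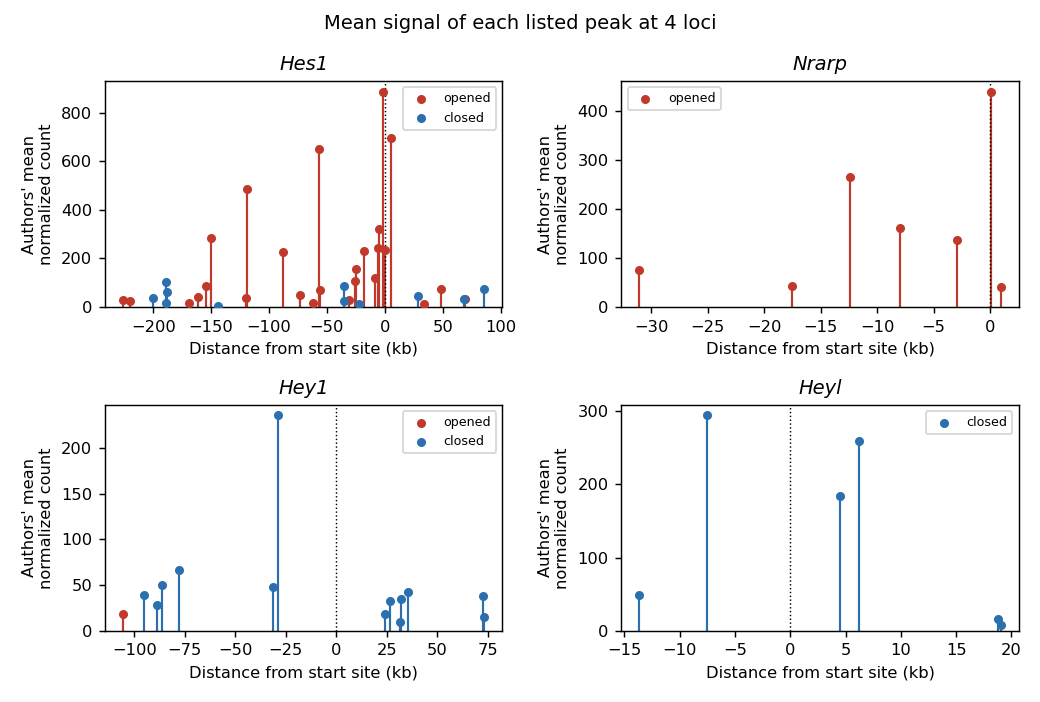
Authors' mean normalized count over both populations (vertical axis, linear from 0, with its own scale in each panel) of each listed peak at Hes1, Nrarp, Hey1 and Heyl against the distance of its centre from the start site in kb, negative upstream. Opened peaks are red and closed peaks blue, and the dotted line marks the start site. Every Nrarp peak is red and every Heyl peak blue, and the tallest bar at Hes1 (886) stands 1.39 kb upstream.

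The Tle genes, whose products are recruited by Hes proteins, had 68 listed peaks, of which 26 were opened and 42 closed. The opened share was 38.2% (Wilson interval 27.6% to 50.1%), against 50.8% of all listed peaks. Their peaks were far from start sites. The median distance was 128 kb, against 27.4 kb over all listed peaks, and only 1 of the 68 was a promoter peak. The 50.8% was not matched for distance. Beyond 100 kb, 11 of 36 Tle peaks were opened (30.6%), against 32.5% of all listed peaks at that distance. Within 10 kb 5 of 7 were opened (71.4%, against 65.4%), and between 10 kb and 100 kb 10 of 25, against 49.6%. Tle1, for which distances refer to the nearest of its 5 start sites, had 7 opened and 16 closed peaks on chromosome 4. Its 3 peaks within 10 kb, at 1.77 kb, 4.83 kb and 7.54 kb downstream inside the gene, were all opened, with mean counts of 64.6, 68.2 and 71.4. Deeper in the gene, closed peaks prevailed. The one 77.8 kb downstream (chr4:72122065-72122722) overlapped a Tle1 exon and had a mean count of 484, which 0.167% of all closed peaks reached, or 73.5 per 100 bp, which 0.253% reached. A closed peak 64.9 kb downstream, in a Tle1 intron, had 253, and another 33.1 kb upstream had 188. Inside the gene as a whole, 4 peaks were opened and 9 closed. Of the 23 peaks, 18 lay nearer to the start site of another annotated gene than to that of Tle1, as did 29 of the 41 at Tle4.

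Tle4 had 41 listed peaks, 17 opened and 24 closed, on chromosome 19, and 0.339% of genes had as many. Its share of the chromosome by the nearest start site was 1003 kb, and per 100 kb it held 4.09 peaks, a density that 40.4% of all genes equalled or exceeded. No Tle4 peak lay within 10 kb of the start site, and 29 of the 41 were more than 100 kb away. The closed peak with the largest mean count, 95.5 kb downstream in an intron (chr19:14502183-14502908), had a mean count of 371, or 51.1 per 100 bp, and the opened one, 142 kb upstream (chr19:14740009-14740581), had 347, or 60.5 per 100 bp. Each was also the densest of its kind at Tle4. Tle2 had 4 peaks within 6.69 kb of its start sites on chromosome 10, of which 2 were opened and 2 closed. The opened ones lay 30 bp downstream (mean count 53.8) and 4.31 kb upstream (126), and the closed ones 1.83 kb upstream (22.0) and 6.69 kb upstream (47.2).

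**Figure D3:**
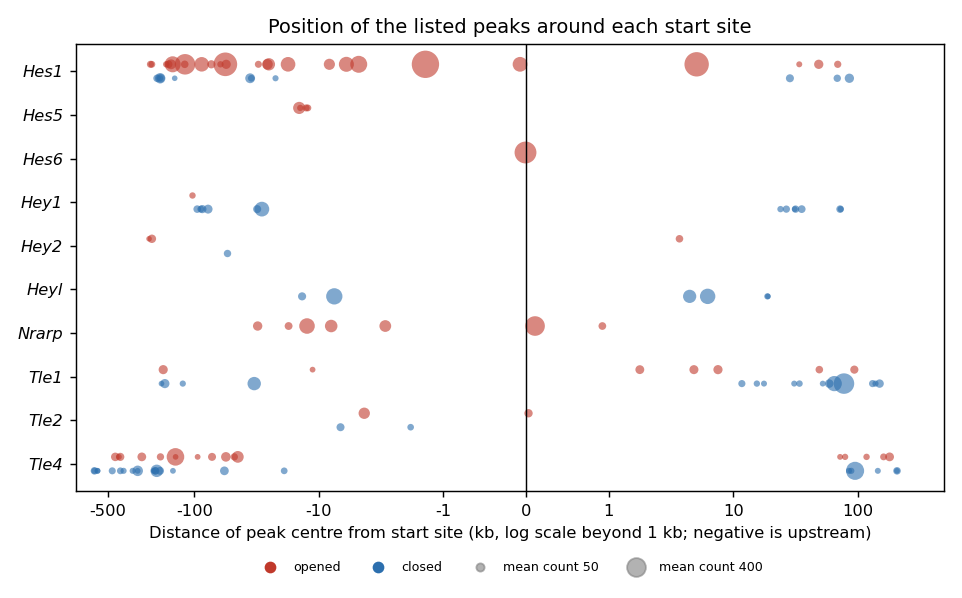
Distance of each of the 141 peak centres from the start site of its gene in kb (horizontal axis, linear within 1 kb and logarithmic beyond, negative upstream), with 1 row per gene, opened peaks in red above closed peaks in blue, and point area growing with the mean count. Only opened peaks lie within 1 kb of a start site, and no peak of Hes5, Hey1 or Tle4 lies within 10 kb.

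Over the members together, all 5 promoter peaks, those of Hes1, Hes6 and Tle2 and the pair at Nrarp, were opened. Among all 10357 listed promoter peaks the opened share was 74.3%, so opened promoters prevailed throughout the lists. Within 10 kb of a start site, 17 of the 22 members' peaks were opened (77.3%), against 65.4% of all listed peaks at that distance. Between 10 kb and 100 kb, 29 of 67 were opened (43.3%, against 49.6%), and beyond 100 kb 22 of 52 (42.3%, against 32.5%). Without Hes1 the shares were 68.8%, 34.7% and 35.9% at these distances, the first of them 11 of 16. The members' peaks thus changed from mostly opened near the start sites to less than evenly opened farther away, and so did all listed peaks. They lay farther out than most, with a median distance of 69.3 kb, and 68.1% of them had their centre outside every annotated gene, against 36.3% of all listed peaks. The median of the opened members' peaks was 18.3 per 100 bp (14.4 over all opened peaks) and that of the closed ones was 12.6 (10.8 over all closed peaks). Their median widths were 335.5 bp and 246 bp, against 300 bp and 248 bp. Of the 141, 24 were in the densest 10% of their own list by count per 100 bp, 15 opened and 9 closed, and 9 of the 15 opened ones were at Hes1.

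The RBPJ string TGGGAA was searched on both strands in the 200 bp around the centre of every peak. This window ran past the edges of peaks narrower than 200 bp, which were 37 of the 141 and 30.9% of all listed peaks. Kept within the peak, it gave the same members' counts for TGGGAA and GTGGGAA. Among the 68 opened members' peaks, 22 held it (32.4%, Wilson interval 22.4% to 44.2%). Among the 73 closed ones, 13 did (17.8%, 10.7% to 28.1%). Over all listed peaks the shares were 20.6% of opened and 16.3% of closed. The members' opened interval lay above the share of all opened peaks, whereas the closed interval contained that of all closed peaks. Without Hes1, 12 of 42 opened peaks held it (28.6%, 17.2% to 43.6%), an interval that contained 20.6%. Over whole peaks the share without Hes1 was 45.2% (31.2% to 60.1%), against 30.6% of all opened peaks. The extended form GTGGGAA, which contains TGGGAA, was in 14.7% of the opened (8.19% to 25.0%) and 4.11% of the closed members' peaks. Over all opened and closed peaks it was in 5.74% and 4.02%. Of the 10 opened members' peaks with it, 4 were at Hes1, 4 at Nrarp and 1 each at Hes5 and Tle1. The relaxed form TGNGAA was in 55.9% of the opened members' peaks (44.1% to 67.1%), against 43.4% of all opened peaks. The peaks with TGGGAA included 10 of the 26 opened peaks of Hes1, 5 of the 7 of Nrarp and 1 of the 4 of Hes5, but also 4 of the 13 closed peaks of Hey1. Of the 12 opened peaks with it outside Hes1, 5 were thus at Nrarp. At the other loci it was in 2 of 17 opened peaks of Tle4, 3 of 7 of Tle1 and 1 of 3 of Hey2. No opened peak of Hes6, Hey1 or Tle2 held it in this window. Searched over whole peaks, 16 of the 26 opened Hes1 peaks held the string, as did 4 of the 11 closed ones. It was in 6 of the 7 of Nrarp, in 5 of the 13 closed peaks of Hey1 and in 2 of the 6 of Heyl. Of the other opened peaks, 5 of 17 at Tle4, 4 of 7 at Tle1, 2 of 3 at Hey2 and 1 each at Hes5 and Hes6 held it over whole peaks. Wide peaks hold any string more often. Among peaks at least as wide as the median of all listed peaks, 29 of 45 opened members' peaks (64.4%) held TGGGAA against 40.1% of all opened peaks, and 11 of 33 closed ones (33.3%) against 29.96%. In all, the members' peaks held 72 such cores, 48 in opened and 24 in closed peaks. These shares describe exact strings, which say nothing of whether RBPJ was bound, and 25.6% of 32851 RefSeq promoters of 300 bp hold the same string.

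Complexes of RBPJ and Notch can also bind as dimers at paired sites, which usually face each other 15 to 17 bp apart. Pairs of the relaxed core TGNGAA, which includes TGGGAA, in opposite orientation with at most 30 bp between them were found in 11 of the 141 whole peaks (7.80%), 8 opened and 3 closed, against 3.07% of all listed peaks. Facing pairs spaced 15 to 17 bp, a spacing set after the pairs had been seen, were in 2 of the 141, against 149 of all 80367 (0.185%), and both were opened. The first was in the Hes1 promoter peak (chr16:30065260-30065287), where TGGGAA faced TTCACA, a relaxed core on the other strand, across 16 bp, with another TGGGAA inside the pair. The second was in the Nrarp peak 2.92 kb upstream (chr2:25177814-25177840), printed above, where TGGGAA faced TTCCCA across 15 bp. With 2 peaks, the share has a wide Wilson interval, 0.390% to 5.02%.

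**Figure D4:**
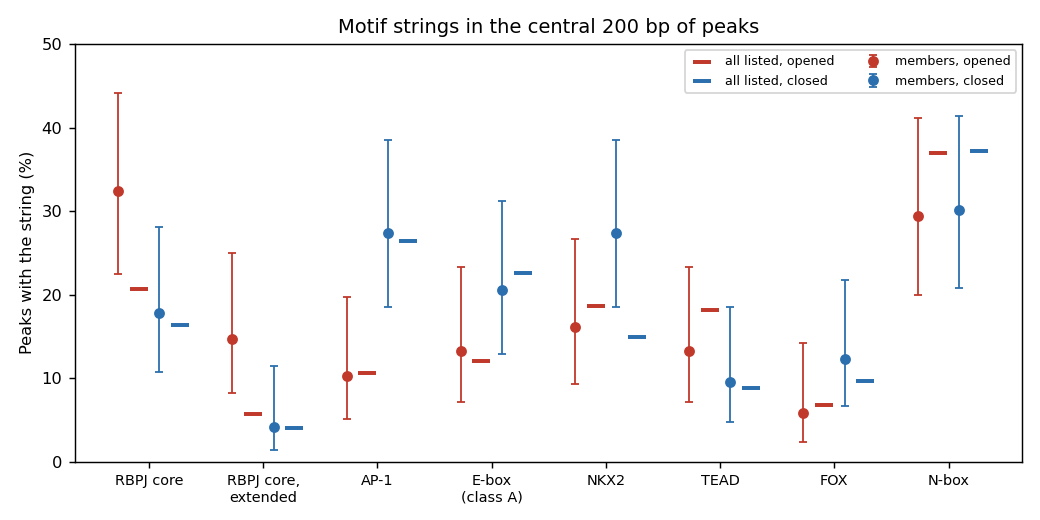
Share of peaks, in percent, that held each string in their central 200 bp, for opened (red) and closed (blue) peaks. Points are the members' peaks (68 opened, 73 closed) with 95% Wilson intervals for counting error, and dashes are all listed peaks of the same list. Of the strings plotted, only the RBPJ core and its extended form have an interval for opened peaks above the dash, and only NKX2 one for closed peaks, in a window that ran past the edges of narrow peaks. Inside the peaks the NKX2 interval contained the background. Of the 22 opened members' peaks with the RBPJ core, 10 were at Hes1 and 5 at Nrarp. Of the 10 with the extended form, 4 were at Hes1 and 4 at Nrarp.

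The other strings mostly followed the lists. The AP-1 string TGANTCA was in 10.3% of opened and 27.4% of closed members' peaks, against 10.6% and 26.4% of all opened and closed peaks, and 10 of the 20 closed peaks that held it were at Tle4. The E-box CAGCTG was in 13.2% and 20.5%, against 12.0% and 22.6%. The NKX2 string CACTTNA was in 16.2% of opened and 27.4% of closed members' peaks (Wilson interval of the latter 18.5% to 38.6%), whereas over all listed peaks it was in 18.6% of opened and 14.9% of closed ones. That the closed interval lay above the background depended on the window. With the window kept within the peak, 15 of the 73 closed members' peaks held the string (20.5%, 12.9% to 31.2%), against 13.7% of all closed ones. Over whole peaks 17 did (23.3%, 15.1% to 34.2%), against 18.4%, and both intervals contained the background. Of these 17, 8 were at Tle4, 5 at Tle1, 2 at Hey1, 1 at Hey2 and 1 at Hes1. The TEAD string CATTCC was in 13.2% and 9.59%, against 18.1% and 8.78%, and a CATTCC followed by CA contains an RBPJ core as well, an overlap that touched 2 of the 72 cores. The FOX string TGTTTAC was in 5.88% and 12.3%, against 6.85% and 9.70%. Of the strings that Hes and Hey proteins themselves bind, the N-box CACNAG was in 29.4% and 30.1%, against 37.0% and 37.2%, CACGTG was in 4 of the 141 peaks (2.84%, against 4.26% of all listed peaks) and CACGCG in 2 (1.42%, against 2.55%). Shares were set side by side for 8 strings other than the RBPJ forms, with no test.

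Among 37 other genes of the Notch pathway, 32 had listed peaks, 142 opened and 129 closed (52.4% opened), with more opened than closed peaks at 19 genes and more closed at 10. The 4 receptor genes differed, with opened peaks alone at Notch1 (13) and Notch3 (8), closed peaks alone at Notch4 (5), and 13 opened and 6 closed at Notch2. Of the ligand genes, Dll1 had 1 opened and 14 closed peaks and Jag2 had 4 closed and none opened, but Jag1 had 13 opened and 7 closed, Dll4 had 2 and 1, and Dll3 had none. Dner, which codes for a Notch-binding transmembrane protein of neurons, had 1 opened and 16 closed, and Rbpj had 9 of each. At 9 further genes of the Hes, Hey and Tle families, the 84 listed peaks were 59 opened and 25 closed (70.2% opened), and Tle3, with 27 opened and 5 closed, differed in this from Tle1 and Tle4.

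The populations' labels were checked with marker genes in the same lists. Of 82 peaks at 10 NE genes, 65 were closed, among them all 28 of Insm1, a transcription factor of NE cells. Chga (8 opened, 6 closed) and Nkx2-1 (6 opened, 5 closed) had more opened than closed peaks and held 14 of the 17 opened ones. Both promoter peaks were closed at Chga and opened at Nkx2-1, and Syp and Dll3 had no listed peak. Of 33 peaks at 6 club cell genes, 27 were opened. Hey1, Heyl and the other Hey genes are also expressed in blood vessels, and 8 endothelial genes had 52 closed and 24 opened peaks (31.6% opened). Of the closed ones 23 were at Cdh5 and 9 at Vwf, whereas Egfl7 (7 opened) and Tie1 (3 opened) had none closed. Promoter peaks were opened at Kdr and Egfl7 and closed at Tek, and neither Cdh5 nor Vwf had one. At 5 mural cell genes 7 peaks were opened and 6 closed, at 5 fibroblast genes 10 and 13, and at 9 leukocyte genes 14 and 7. The sort had taken CD31-negative cells, and CD31 marks endothelial cells. The gene for CD31, Pecam1, had 1 opened and 1 closed peak. The part of such cells in the closed peaks of Hey1 and Heyl was not tested.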

How the data were processed

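The 2 deposited lists of differential ATAC-seq peaks came from 8 libraries (16 runs) of GFPhigh and GFPneg cells. Per the study's methods and the submitters' processing notes, the authors trimmed reads, aligned them to mm10 with Bowtie2 2.3.4.1, removed duplicates, called narrow peaks with MACS2, pooled the calls into 1 peak set and counted reads over it. The deposited signal is the authors' mean of these counts after DESeq2 1.28.1 scaling, over all libraries or lane runs. The deposited files also hold the authors' own comparison (log2 fold change, its error, test statistic and p-values). These columns were not used, and only list membership was taken from them. No column of values per sample was used.

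Peak centres were assigned to the nearest start site of protein-coding transcripts (GENCODE vM21 basic, mm10). Peaks within 1 kb of it were called promoter peaks. Sequences came from the RefSeq copy of GRCm38, whose chromosomes contained all peaks, and strings were searched without mismatches on both strands. Of the 10 genes, 7 had a promoter in the RefSeq table (GRCm38.p6), and Hes1, Hey1 and Heyl had none. Named peaks were every promoter peak and, per gene, the opened and the closed peak with the largest mean count, with further peaks of these loci, and single genes of the marker and family lists, named after their values were seen. The members, gene lists and strings were chosen with earlier results of these data known. The assignment and the string search were tested on simulated data with known answers. Intervals are 95% Wilson intervals (scipy 1.17.1, Python 3.11.15).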

Additional observations from a re-analysis of the deposited data

How the results depend on the processing

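No paired analysis was possible because the deposited lists hold no values per library. A stricter limit on fold change or adjusted p was not run, since those columns were not used, and a minimum mean count stood in for it. The members' 141 peaks (68 opened, 73 closed, 48.2% opened) depended mainly on the assignment. With the nearest start site of any gene type there were 43 peaks, 28 opened and 15 closed (65.1% opened), since 98 of the 141 lay nearer to the start site of another annotated gene. Within 100 kb there were 89 peaks, 43 of them closed, and within the gene body and 10 kb around it 44, of which 24 were opened and 20 closed. Peaks with a mean count at or above the median of all listed peaks numbered 86, with 37 closed (57.0% opened). The 5 promoter peaks became 9 within 3 kb. The RBPJ core was in 35 of the 141 peaks (24.8%). It was in 55 (39.0%) when whole peaks were searched, in 66 (46.8%) with TGNGAA and in 13 (9.22%) with GTGGGAA. One start site per gene and merging of peaks within 100 bp moved none of these counts by over 1.5 times. The window kept within the peak, an alternative chosen after seeing the data, left the RBPJ count at 35. With the nearest start site of any gene type, Hes1 had 6 peaks, Hey1 0, Tle1 5 and Tle4 12. Of 100 further values for single genes, strings and medians, 33 moved by over 1.5 times.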

Other observations

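The protein-coding genes on either side of the members were counted by the same rule, after the members' values had been seen. Beside Nrarp, Noxa1 had 3 opened peaks and Tor4a 4, with none closed at either. Beside Hes6, Ilkap had 2 opened peaks and none closed, and Per2, a circadian clock gene, had 9 opened and 1 closed. Beside Hes5, Tnfrsf14 and Pank4 had 2 opened peaks each and none closed. Beside Hey1, Stmn2, a neuronal microtubule regulator, had 1 opened and 6 closed peaks, and Mrps28 had 2 opened and 5 closed. Beside Heyl, Nt5c1a had 1 closed peak and Pabpc4 had 2, with none opened. On either side of Tle1, Gm11232 had 16 closed peaks and none opened, and Aldoart1 had 1 opened and 18 closed. Beside Hey2, with 3 opened and 1 closed, Ncoa7 had 7 opened and 11 closed peaks and Hddc2 had 3 closed and none opened. Beside Tle2, with 2 of each, its relatives Aes and Tle6 had 2 opened peaks each and none closed. Beside Tle4, Olfr1505 had 2 of each and Psat1 had 4 opened and 7 closed. Beside Hes1, Opa1 had 11 opened and 7 closed peaks and Cpn2 had 4 and 7. The start sites of these neighbors lay between 3.20 kb (Pank4 and Hes5) and 1327 kb (Psat1 and Tle4) from those of the members, and whether a neighbor and a member share the peaks between them was not tested.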
